A study of Mus musculus with 8 samples.

Results

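The EGF receptor family and its ligands were examined in RNA sequencing of the mouse gastric squamous-columnar junction (SCJ), the border between the squamous forestomach and the glandular stomach. The group was taken as 10 genes by symbol, the receptors Egfr, Erbb2, Erbb3 and Erbb4 and the ligands Egf, Tgfa, Areg, Ereg, Hbegf and Btc, out of 23361 genes in the table. The study compared 5 SCJ cancers with SCJ tissue of 3 wild-type stomachs. The cancers, labelled Trp53-/-Rb1-/-, were dissected late after tamoxifen from mice that carried the Lgr5 eGFP-IRES-CreERT2 knock-in, floxed Trp53 and Rb1 and the Ai9 tdTomato reporter, so that deletion was directed to cells expressing Lgr5, and tumor borders were set by tdTomato. Control stomachs were from age-paired wild-type mice, and the sources used here do not state whether these received tamoxifen or carried the Cre or reporter alleles. Tumor state, genotype and treatment therefore cannot be told apart. The sources also do not state whether each cancer came from a different mouse, so p-values measure only the spread between these samples.

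The ERBB receptors are tyrosine kinases of epithelial cells that pair with each other when a ligand binds. Egfr is the receptor for the 6 ligands listed here, Erbb2 has no known ligand and is the preferred partner of the others, and Erbb3 has an impaired kinase and binds neuregulins. The ligands are made as membrane-anchored precursors and are released by proteases of the ADAM family. In the stomach this system is known for the renewal and repair of the mucosa, and TGF-α, the product of Tgfa, for restraint of acid secretion and for growth of mucous surface cells.

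Expression was given as FPKM, which scales the sequenced fragments of a gene to its transcript length and to the library, rounded to whole numbers. The depth behind each value is unknown, so a value of 0 is described as listed at 0. FPKM summed over all genes was 403569 to 573858 in the cancers and 887141 to 992550 in the controls, and each result was therefore also computed after scaling all libraries to the same sum (TPM). Neuroendocrine cell markers set the groups apart, since 8 of 8 were higher in the cancers, where 16.2% of all genes tested were. Their summed FPKM was 8047 to 17897 against 125 to 188. Markers of gastric pit and neck cells summed to 691, 72677, 5226, 46224 and 15908 FPKM in cancers 1 to 5 and to 146212 to 214340 FPKM in the controls. However, only 1 of the 6, Gkn1, was lower past the threshold, where 18.3% of all genes tested were. Cancer 1 held little glandular or squamous signal. Its 6 parietal cell markers and 7 of its 8 squamous markers were listed at 0, as were Muc5ac and Muc6 of the pit and neck list. In bulk tissue, fewer cells of a type and less RNA per cell cannot be told apart. Of the deleted genes, Rb1 was at 4 to 6 FPKM in the cancers and 9 to 10 FPKM in the controls (log2 fold change -0.90, limma adjusted p = 0.00589), a difference of -0.05 with TPM. Trp53 was at 12 to 30 FPKM against 16 to 19 FPKM and was not separated (-0.08, limma adjusted p = 0.87), but was higher with TPM (0.86, limma adjusted p = 0.0201). Values over a whole gene do not measure the deleted exons.

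The promoters of Egfr, Tgfa and Btc are shown because these members lay closest to each other across the libraries (below), and that of Areg because it neighbours Btc but was not called. Each is the RefSeq window of GRCm38.p6 (mm10) from 250 bases before to 50 after the annotated start, read 5′ to 3′ on the gene's strand. This extent was checked for Egfr and Erbb2. The Tgfa and Areg windows end fewer than 50 bases past the gene starts given below, so their annotated starts may differ from these. Capitals mark motif matches found on either strand. The motifs searched were the Sp1 box GGGCGG, next the core promoter box TATAAA that places the start of transcription in some genes, and the cAMP response element TGACGTCA. The Egfr window is chr11:16751953-16752252 on the plus strand, that of Tgfa chr6:86194972-86195271 on the plus strand, that of Btc chr5:91402945-91403244 on the minus strand and that of Areg chr5:91139349-91139648 on the plus strand.
Egfr: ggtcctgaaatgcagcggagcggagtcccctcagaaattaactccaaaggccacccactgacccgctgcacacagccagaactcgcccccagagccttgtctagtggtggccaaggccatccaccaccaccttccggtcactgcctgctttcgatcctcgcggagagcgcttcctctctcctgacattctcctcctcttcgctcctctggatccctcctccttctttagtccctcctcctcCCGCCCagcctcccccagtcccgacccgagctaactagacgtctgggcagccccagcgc
Tgfa: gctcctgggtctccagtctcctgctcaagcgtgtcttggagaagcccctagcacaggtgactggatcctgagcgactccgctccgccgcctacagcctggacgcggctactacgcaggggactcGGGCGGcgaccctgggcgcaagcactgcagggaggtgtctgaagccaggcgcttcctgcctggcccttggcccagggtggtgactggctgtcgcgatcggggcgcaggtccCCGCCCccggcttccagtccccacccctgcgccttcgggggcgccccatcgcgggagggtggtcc
Btc: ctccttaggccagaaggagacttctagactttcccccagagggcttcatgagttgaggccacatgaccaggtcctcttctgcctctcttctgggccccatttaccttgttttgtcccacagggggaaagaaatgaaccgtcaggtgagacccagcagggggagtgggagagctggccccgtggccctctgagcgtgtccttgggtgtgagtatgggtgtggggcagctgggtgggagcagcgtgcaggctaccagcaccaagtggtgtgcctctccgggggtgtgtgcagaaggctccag
Areg: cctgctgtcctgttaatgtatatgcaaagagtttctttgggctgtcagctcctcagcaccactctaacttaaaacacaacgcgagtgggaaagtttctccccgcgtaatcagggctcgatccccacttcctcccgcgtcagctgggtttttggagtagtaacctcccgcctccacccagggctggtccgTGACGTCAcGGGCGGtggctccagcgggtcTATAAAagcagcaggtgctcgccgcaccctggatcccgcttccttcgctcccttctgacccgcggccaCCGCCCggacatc
Egfr held 1 Sp1 box and Tgfa held 2. Areg held 2 Sp1 boxes, 1 core promoter box and 1 cAMP response element, and Btc held no match to any of them. Over all 32851 windows of the same length, 35.7% held the Sp1 box, 13.6% the core promoter box and 1.79% the cAMP response element. An E2F motif, TTCCCGCC, which 2.19% of the windows held, was in no window of the 7 members that had one. GC content was 62.3% for Egfr, 70.7% for Tgfa, 60.3% for Btc and 59.3% for Areg, against a median of 52.7% over all windows. None of the motifs was in all 4 windows shown, and a match is a description of the letters and not of a bound site.

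Egfr, Erbb3, Tgfa and Btc were lower in the cancers. Of the 10 members 9 could be tested, and these 4 were lower at a limma adjusted p under 0.05 while 0 were higher. At an unadjusted p under 0.05, 6 were lower and 0 were higher, where 25.3% and 22.6% of all genes were. After TPM scaling 1 member, Tgfa, was lower, where 3.68% of all genes were lower and 50.0% were higher. Over all 14357 genes tested 18.3% were lower and 16.2% were higher. The log2 fold change was below 0 for 9 of 9 members on FPKM, with Hbegf above 0 after TPM scaling, and its median was -1.34 against -0.04 over all genes tested. In 5 of the 9, every cancer lay below every control, as did 19.8% of all genes, and 0 members had every cancer above every control, as did 14.4% of all genes. The number of members called was 1, Tgfa, without cancer 1, and 1 without control 2 or without control 3. It was 2 without cancer 3, cancer 4 or control 1, 4 without cancer 5 and 5 without cancer 2.

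**Figure D1:**
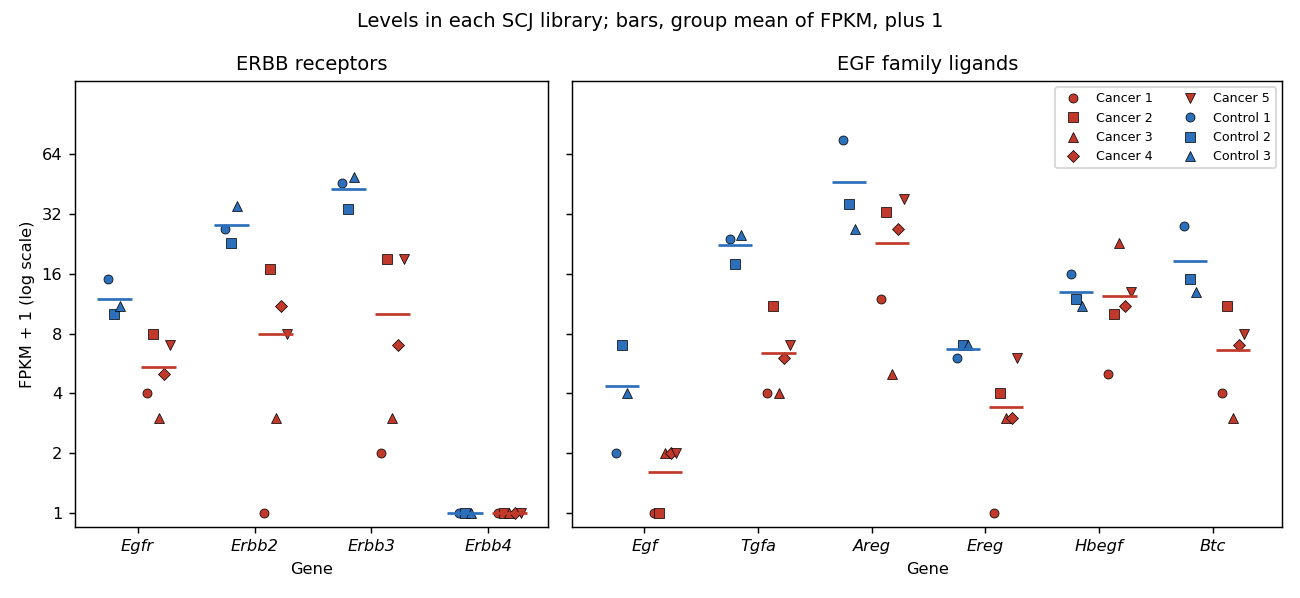
FPKM plus 1 (log scale) of the 4 receptors and 6 ligands in each library, with 5 cancers in red and 3 controls in blue, a marker shape for each replicate and a bar at the group mean. The groups do not overlap for Egfr, Erbb2, Erbb3, Tgfa and Btc, and Erbb4 is listed at 0 in all 8 libraries.

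Among the receptors, Erbb3 and Erbb2 showed the widest separation in mean level. Erbb3, the neuregulin receptor with an impaired kinase (chr10:128569368-128589501), stood at 1, 18, 2, 6 and 18 FPKM in cancers 1 to 5 and at 45, 33 and 48 FPKM in controls 1 to 3. Every cancer was below every control, and cancers 2 and 5 were higher than the other three. The means were 9.0 ± 8.43 (SD, n = 5) and 42.0 ± 7.94 FPKM (SD, n = 3), a log2 fold change of -2.63 (SE 0.80, 95% confidence interval -4.47 to -0.79, limma adjusted p = 0.038). With TPM the difference was -1.85 (limma adjusted p = 0.0721), and with quantile normalization it was -2.40 (limma adjusted p = 0.051). The call was also lost without cancer 1 (0.0528), cancer 3 (0.0812), cancer 4 (0.0629), control 1 (0.113), control 2 (0.0863) or control 3 (0.114), where the log2 fold change stayed between -2.79 and -2.19.

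Erbb2, the partner receptor with no ligand of its own (chr11:98412484-98438988), was listed at 0, 16, 2, 10 and 7 FPKM in cancers 1 to 5 and at 26, 22 and 34 FPKM in controls 1 to 3. Again no cancer reached the lowest control, but the cancers ranged more widely than the controls. The log2 fold change of -2.38 (SE 0.87, 95% confidence interval -4.40 to -0.35) did not pass the threshold (limma adjusted p = 0.0668). It passed without cancer 2, the cancer with the highest Erbb2, at -2.79 (limma adjusted p = 0.0399), and not without any other library, with -1.77 (limma adjusted p = 0.059) without cancer 1. Whether an exact 0 is a failed estimate was not tested. The chief cell gene Pgc was listed at 28832, 0 and 0 FPKM in controls 1 to 3. In cancer 1, where Erbb2 was listed at 0, Erbb3 was at 1 FPKM.

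Egfr, the receptor of the ligands below (chr11:16752203-16913907), was at 3, 7, 2, 4 and 6 FPKM in cancers 1 to 5 and at 14, 9 and 10 FPKM in controls 1 to 3. The groups did not overlap, although cancer 2 at 7 came close to control 2 at 9. The means were 4.4 ± 2.07 (SD, n = 5) and 11.0 ± 2.65 FPKM (SD, n = 3), with the control mean 2.5 times that of the cancers. The log2 fold change was -1.22 (SE 0.34, 95% confidence interval -2.01 to -0.43, limma adjusted p = 0.0289) on FPKM and -0.41 with TPM (limma adjusted p = 0.324). The call was lost without cancer 1 (0.0581), control 1 (0.111), control 2 (0.0631) or control 3 (0.0749).

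Erbb4, the remaining receptor (chr1:68039966-69108059), was listed at 0 in all 8 libraries and was not tested.

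The differences were not of the same size for each receptor, and the proportions of the receptors were compared within each library. Of the summed FPKM of the receptors, Egfr made up 75%, 17.1%, 33.3%, 20% and 19.4% in cancers 1 to 5 but 16.5%, 14.1% and 10.9% in controls 1 to 3. Every cancer was above every control, by a narrow margin except in cancers 1 and 3. Erbb3 took 25%, 43.9%, 33.3%, 30% and 58.1% in cancers 1 to 5 and 51.6% to 52.9% in the controls, so that its share was stable among the controls and lower in 4 of the 5 cancers. Erbb2 held 0% to 50% in the cancers, a range that covered the 30.6% to 37% of the controls. These shares are free of the scaling between libraries, but the summed receptors came to only 4 FPKM in cancer 1 and 6 FPKM in cancer 3, where rounding to whole FPKM sets the share, against 20 to 41 FPKM in the other cancers and 64 to 92 FPKM in the controls. No test was made of the shares.

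**Figure D2:**
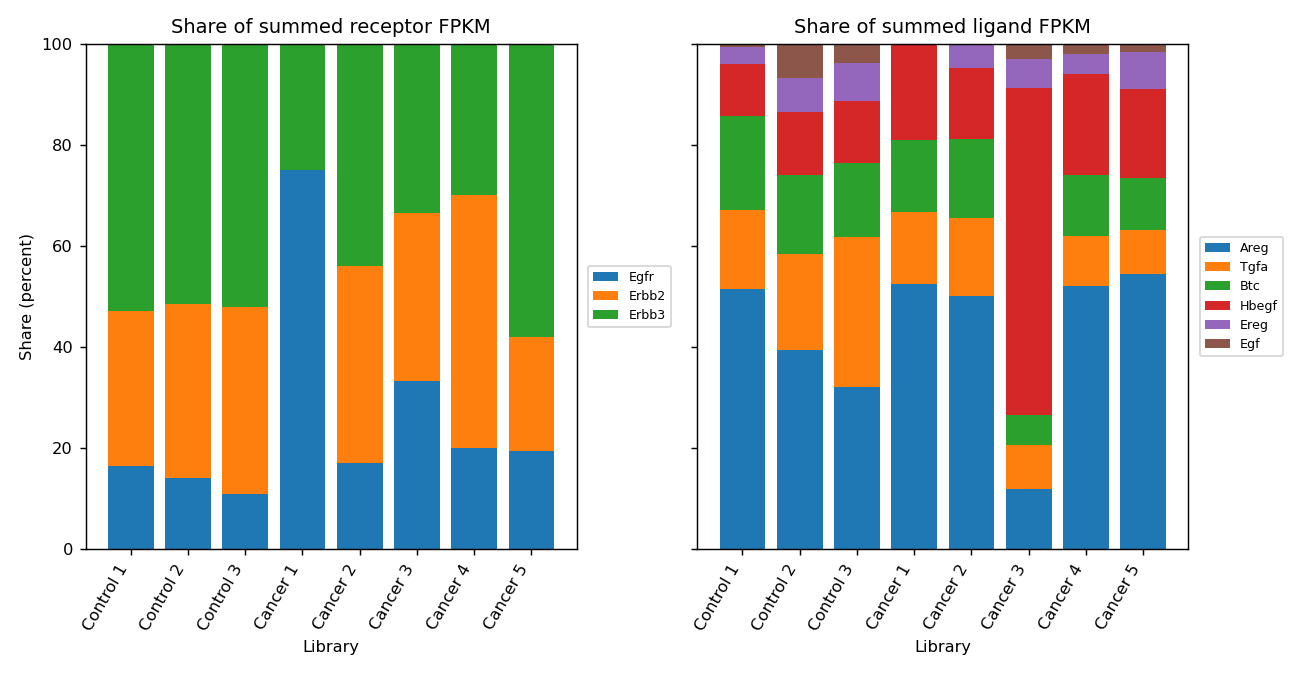
Share (percent) of each receptor in the summed receptor FPKM (left) and of each ligand in the summed ligand FPKM (right), 1 bar per library, controls first. Erbb4 adds 0 throughout. The Egfr share was 16.5% or less in the 3 controls and 17.1% or more in the 5 cancers, and Hbegf held 64.7% of the ligand sum in cancer 3.

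Of the ligands, Tgfa was the clearest. Tgfa (chr6:86195251-86275449) was at 3, 10, 3, 5 and 6 FPKM in cancers 1 to 5 and at 23, 17 and 24 FPKM in controls 1 to 3. The highest cancer stood well under the lowest control, and the means were 5.4 ± 2.88 (SD, n = 5) and 21.3 ± 3.79 FPKM (SD, n = 3). The log2 fold change was -1.90 (SE 0.35, 95% confidence interval -2.71 to -1.09, limma adjusted p = 0.00695). Tgfa was the only member lower with TPM as well (-1.06, limma adjusted p = 0.021), and it remained past the threshold with each library left out in turn, between -2.12 and -1.75.

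Btc, betacellulin, a ligand of Egfr and Erbb4 (chr5:91357261-91402994), was at 3, 10, 2, 6 and 7 FPKM in cancers 1 to 5 and at 27, 14 and 12 FPKM in controls 1 to 3. No cancer reached a control, with cancer 2 and control 3 the nearest. The log2 fold change was -1.57 (SE 0.47, 95% confidence interval -2.65 to -0.49, limma adjusted p = 0.036) and -0.74 with TPM (limma adjusted p = 0.172). The call was lost without cancer 1 (0.0704), cancer 3 (0.0617), cancer 4 (0.0522), control 1 (0.131), control 2 (0.0804) or control 3 (0.0647).

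Areg and Ereg, amphiregulin and epiregulin, are neighbours of Btc within 375 kb of chromosome 5 that held 5 genes of the table (chr5:91027517-91402994). Areg (chr5:91139615-91148432) was at 11, 32, 4, 26 and 37 FPKM in cancers 1 to 5 and at 75, 35 and 26 FPKM in controls 1 to 3. The groups overlapped, since cancers 2, 4 and 5 lay at or above the lowest control, and the log2 fold change of -1.20 (SE 0.71, 95% confidence interval -2.85 to 0.45) did not pass the threshold (limma adjusted p = 0.212). Ereg (chr5:91074617-91093649) was at 0, 3, 2, 2 and 5 FPKM in the cancers and at 5, 6 and 6 FPKM in the controls, with cancer 5 equal to control 1 (-1.18, SE 0.52, 95% confidence interval -2.38 to 0.02, limma adjusted p = 0.108). Of the other genes of this stretch, Epgn, another ligand of the family, was listed at 1 FPKM in cancer 3 and at 0 elsewhere, and Gm19619 was listed at 0 in all libraries.

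Egf itself (chr3:129677575-129763882) was among the lowest ligands, at 0, 0, 1, 1 and 1 FPKM in cancers 1 to 5 and at 1, 6 and 3 FPKM in controls 1 to 3. Control 1 lay within the range of the cancers, and the log2 fold change of -1.34 (SE 0.45, 95% confidence interval -2.39 to -0.28) did not pass the threshold (limma adjusted p = 0.0542). Without control 1 it did (-1.80, limma adjusted p = 0.0348), but not without any other library, with -0.90 (limma adjusted p = 0.178) without control 2.

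Hbegf, heparin-binding EGF-like growth factor, was the member with the smallest difference. It was at 4, 9, 22, 10 and 12 FPKM in cancers 1 to 5 and at 15, 11 and 10 FPKM in controls 1 to 3. Cancer 3 held the highest value of all libraries and cancer 1 the lowest. The means were 11.4 ± 6.62 (SD, n = 5) and 12.0 ± 2.65 FPKM (SD, n = 3), and the log2 fold change was -0.22 (SE 0.44, 95% confidence interval -1.23 to 0.80, limma adjusted p = 0.718). It was 0.69 with TPM (limma adjusted p = 0.216) and 0.07 without cancer 1, so that its direction depends on the scaling and on 1 library, and the interval does not show that the groups were alike.

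The two-sided exact permutation test, applied to each of the 9 tested members without adjustment, gave p = 0.018 for Tgfa, the smallest that 56 splits allow, and p = 0.036 for Egfr, Erbb3 and Btc. The other exact p-values were 0.054 for Erbb2, 0.071 for Egf, 0.089 for Ereg, 0.214 for Areg and 0.643 for Hbegf.

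**Figure D3:**
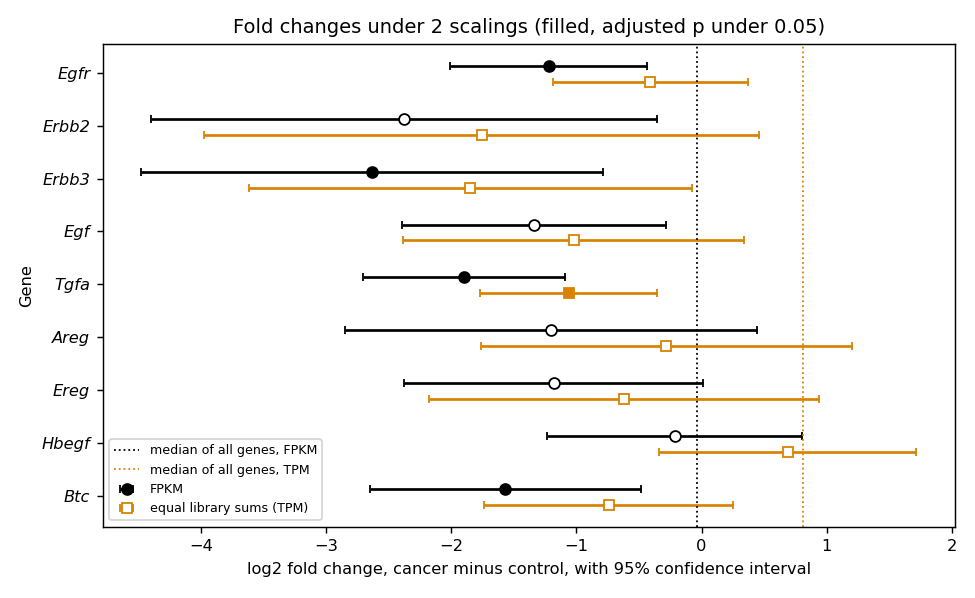
Log2 fold change of each tested member, cancer minus control, with its 95% confidence interval, on FPKM (circles) and with TPM (squares), filled where the limma adjusted p was under 0.05. Dotted lines mark the median of all genes tested, -0.04 on FPKM and 0.81 with TPM. Tgfa is filled under both, and Hbegf lies above 0 with TPM.

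Scaling to TPM shifted the median over all genes tested from -0.04 to 0.81. Relative to this median, the TPM differences were -1.22 for Egfr, -2.57 for Erbb2, -2.66 for Erbb3, -1.87 for Tgfa, -1.55 for Btc and -0.12 for Hbegf. The place of the members among all genes on FPKM can be given as the percent of tested genes with a lower log2 fold change, which was 2.05% for Erbb3, 2.81% for Erbb2, 4.81% for Tgfa, 7.08% for Btc and 11.0% for Egfr. It was 9.64% for Egf, 11.4% for Areg and 11.8% for Ereg, but 41.1% for Hbegf.

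Within the ligands, the share of Tgfa was lower and that of Hbegf higher in the cancers. Tgfa made up 14.3%, 15.6%, 8.82%, 10% and 8.82% of the summed ligand FPKM in cancers 1 to 5 and 15.8%, 19.1% and 29.6% in controls 1 to 3. Hbegf made up 19%, 14.1%, 64.7%, 20% and 17.6% in cancers 1 to 5, whereas controls 1 to 3 had 10.3%, 12.4% and 12.3%. Every cancer was thus below every control for the Tgfa share and above every control for the Hbegf share, narrowly so in cancer 2 for both. The ratio of Hbegf to Tgfa within a library was 1.33, 0.90, 7.33, 2.0 and 2.0 in cancers 1 to 5 and 0.652, 0.647 and 0.417 in controls 1 to 3, which did not overlap. Areg was the largest part of the ligand sum in 4 of 5 cancers and in all 3 controls, at 11.8% to 54.4% and 32.1% to 51.4%, and Btc held 5.88% to 15.6% against 14.8% to 18.5%. The ligand sum was 21 to 68 FPKM in the cancers and 81 to 146 FPKM in the controls, and no test was made of the shares.

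Ranked by mean FPKM, which is per transcript length and so comparable between genes, the members ran in the controls from Areg (45.3), Erbb3 (42.0), Erbb2 (27.3), Tgfa (21.3) and Btc (17.7) to Hbegf (12.0), Egfr (11.0), Ereg (5.67), Egf (3.33) and Erbb4 (0). Of neighbours in this order, the ranges over the 3 controls were separate only between Egfr and Ereg and between Egf and Erbb4. Within each control, Erbb3 was above Erbb2 and Erbb2 above Egfr. In the cancers the order was Areg (22.0), Hbegf (11.4), Erbb3 (9.0), Erbb2 (7.0), Btc (5.6), Tgfa (5.4), Egfr (4.4), Ereg (2.4), Egf (0.6) and Erbb4 (0), and all neighbours overlapped.

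Levels of the members were set beside the gastric epithelial markers of each library. The order of the 8 libraries by Erbb2 was the same as by the summed pit and neck cell markers, from cancer 1 (0 FPKM, marker sum 691) through cancers 3, 5, 4 and 2 (16 FPKM, marker sum 72677) to controls 2, 1 and 3. This sum was made up mostly of Gkn1, Gkn2 and Tff1. In these and in Muc5ac every cancer was below every control. Tff2 and Muc6 of the same list overlapped between the groups and were highest in cancer 2, at 7031 and 48 FPKM. The general epithelial marker sum put the 5 cancers in the Erbb2 order too, but not the controls. The parietal, squamous and chief cell marker sums gave other orders. Among the controls, Erbb3 and Tgfa had the Erbb2 order too. Among the cancers, Erbb3 left it in cancer 5, at 18 FPKM with a marker sum of 15908, as high as cancer 2. Tgfa and Egfr left it too, at 6 FPKM in cancer 5 against 5 FPKM in cancer 4 for Tgfa, and at 6 against 4 FPKM in the same cancers for Egfr. Egfr also left the order at 3 FPKM in cancer 1 against 2 FPKM in cancer 3, and at 14 FPKM in control 1 against 10 FPKM in control 3. Hbegf was highest in cancer 3, where the marker sum was 5226. The summed general epithelial markers were 818 to 4751 FPKM in the cancers and 5564 to 7761 FPKM in the controls, but the list was split, with Epcam and Cldn7 higher and Cdh1 and Krt8 lower. Squamous markers summed to 1 to 1718 FPKM in the cancers and 2150 to 3712 FPKM in the controls (2 of 8 lower), and parietal markers to 0 to 2637 FPKM against 6656 to 12473 FPKM (3 of 6 lower). Gif was counted in both the parietal and the chief cell list, so neither sum is of 1 cell type alone. It was at 0 to 520 FPKM in the cancers and 2581 to 4982 FPKM in the controls. Summed markers of hepatocytes were at 1161 to 4413 FPKM in the cancers and 68 to 97 FPKM in the controls (2 of 3 tested higher), a sum made up mostly of Ahsg and Ttr. Of the other hepatocyte markers, Apoh, Fga and Fgg were listed at 0 in all libraries but cancer 5, and Alb was at 1 FPKM in cancer 4 and in each control and at 16 to 266 FPKM in the other cancers. Summed markers of neurons and Schwann cells were at 70 to 136 against 4 FPKM (3 of 4 higher), those of endothelium at 14 to 50 against 8 to 12 FPKM (3 of 5 higher) and those of leukocytes at 9 to 63 against 5 to 6 FPKM (2 of 5 higher). Markers of fibroblasts (62 to 329 against 72 to 133 FPKM) and smooth muscle (43 to 1692 against 355 to 549 FPKM) overlapped, and chief cell markers were at 4 to 10569 against 5966 to 47014 FPKM (1 of 5 lower). The lowest control sum, 5966 FPKM, was that of control 2, where Pgc and Chia were listed at 0. In control 1 they were at 28832 and 15020 FPKM. Beside these counts of markers, 16.2% of all genes tested were higher and 18.3% were lower. The part of the cell types above, and of the neuroendocrine markers that were higher in every cancer, in the lower levels of the members was not tested.

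**Figure D4:**
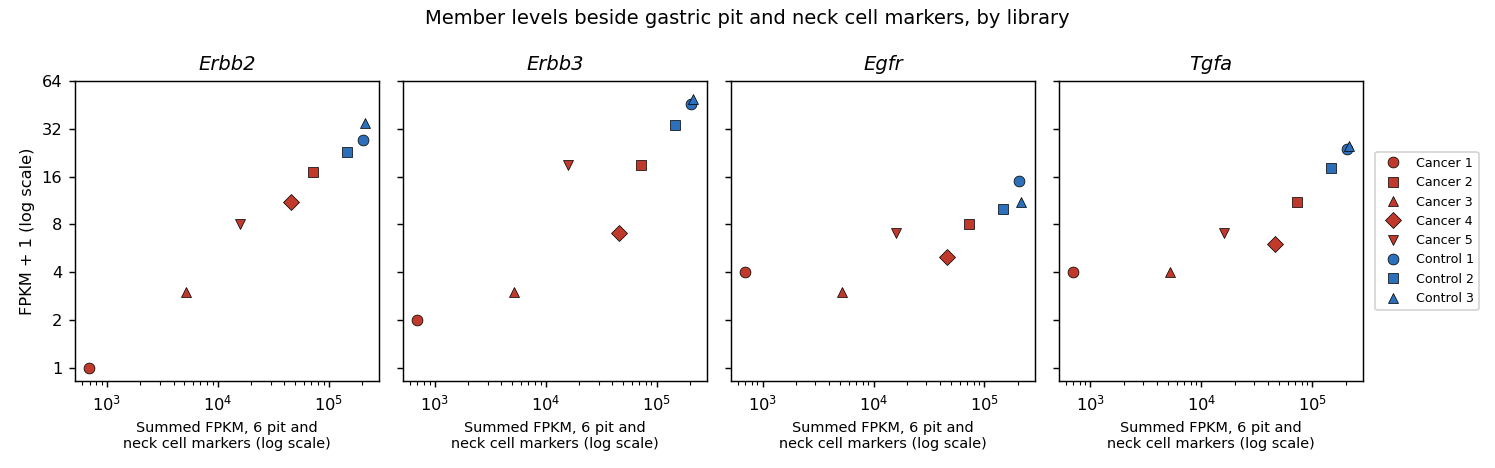
FPKM plus 1 of Erbb2, Erbb3, Egfr and Tgfa against the summed FPKM of 6 gastric pit and neck cell markers (both log scales), 1 point per library, with cancers in red and controls in blue. Erbb2 rises with the marker sum through all 8 libraries, whereas Erbb3 in cancer 5 equals that in cancer 2 at a lower marker sum, and Tgfa and Egfr are higher in cancer 5 than in cancer 4. The sum is made up mostly of Gkn1, Gkn2 and Tff1, and Tff2 and Muc6 of the list overlap between the groups.

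Gene profiles were compared over the 8 libraries by the mean absolute difference of log2(FPKM + 1) after centring each gene, so that a smaller value means a closer profile. Among the members, Egfr and Btc were the closest (0.25), followed by Tgfa and Btc (0.313), Egfr and Tgfa (0.317) and Areg and Btc (0.359). The closest receptors were Erbb2 and Erbb3 (0.458). Of 9131 genes with a mean FPKM of at least 5, the nearest to Erbb2 was Ihh, the secreted ligand Indian hedgehog, at 0.0706, with 0, 17, 2, 11 and 7 FPKM in the cancers and 31, 24 and 38 FPKM in the controls. Slc22a18, a membrane transporter, was next (0.152). The nearest to Tgfa were Pcyt1a, an enzyme of phosphatidylcholine synthesis (0.0786), and Acaa1a, a peroxisomal thiolase (0.101). Plekha7, a protein of adherens junctions (0.108), and Wdr1, an actin disassembly factor (0.12), were nearest to Egfr, and Mmp15 (0.197) and Gstp2 (0.215) to Erbb3. Ccdc71l and Tmc7 (both 0.149) were nearest to Btc, and Klf5, an epithelial transcription factor (0.184), and Arhgef28 (0.191) to Ereg. Profiles less closely matched were those of Areg (Myh14, 0.326, and Rdh10, 0.367), Egf (Herc3, 0.298, and Degs1, 0.313) and Hbegf (Hs3st1, 0.211, and Lphn2, 0.25). These genes were picked for their likeness, which is a description with no test.

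Beyond the members, 67 genes of the ERBB pathway in 6 lists were examined, of which 63 could be tested, 8 were higher and 16 were lower, where 16.2% of all genes tested were higher and 18.3% were lower. After TPM 23 of the 63 were higher and 2 were lower, where 50.0% of all genes were higher and 3.68% were lower. With each library left out in turn, between 7 (without control 2) and 26 (without cancer 2) were called, with 8 without control 1, 12 without control 3 and 13 without cancer 3.

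The neuregulins and the other ligands of the family were at low levels. Of 5 genes, Nrg2 and Nrg3 were listed at 0 in all libraries, Nrg1, a ligand of Erbb3 and Erbb4, was at 0 or 1 FPKM, and only Nrg1 and Nrg4 could be tested. Nrg4, a ligand of Erbb4, was at 4, 2, 3, 2 and 6 FPKM in cancers 1 to 5 and at 1 FPKM in each control, so that the ligand was higher (log2 fold change 1.06, SE 0.29, limma adjusted p = 0.0283) while Erbb4 was listed at 0. The call was lost without cancer 1 (0.0548), cancer 3 (0.0566), control 1 (0.086), control 2 (0.0837) or control 3 (0.082), and with quantile normalization (0.70, limma adjusted p = 0.121).

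In the list of ligand release, 3 of 8 tested genes were lower, where 18.3% of all genes were, and 0 were higher (4 and 0 at an unadjusted p under 0.05, against 25.3% and 22.6% of all genes), with a median log2 fold change of -0.46. Adam10, the protease that cleaves Egf and Btc precursors, was at 28, 33, 27, 36 and 56 FPKM in cancers 1 to 5 and at 89, 62 and 57 FPKM in the controls (log2 fold change -0.95, SE 0.27, limma adjusted p = 0.0291), with cancer 5 only just below control 3. Adam9, a related protease (-0.75, limma adjusted p = 0.0181), and Frmd8, which keeps the iRhom and Adam17 complex at the cell surface (-0.80, limma adjusted p = 0.0217), were lower too. With TPM these differences became 0.01, 0.20 and 0.09. Adam17, the main sheddase of Tgfa, Areg, Ereg and Hbegf, was at 7 to 11 FPKM against 12 to 18 FPKM and did not pass the threshold (-0.53, limma adjusted p = 0.0601). The call of Adam10 was lost without cancer 1 (0.0571), cancer 3 (0.0648), control 1 (0.113), control 2 (0.0706) or control 3 (0.055), that of Adam9 without control 1 (0.0669) or control 2 (0.0661), and that of Frmd8 without control 1 (0.0744), control 2 (0.0503) or control 3 (0.0772). With quantile normalization, too, none of the 3 was called, at -0.51 for Adam10 (limma adjusted p = 0.145), -0.36 for Adam9 (0.165) and -0.72 for Frmd8 (0.0586).

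Of 10 genes that restrain the receptors or direct their turnover, 1 was higher and 0 were lower, where 16.2% and 18.3% of all genes were (1 and 1 at an unadjusted p under 0.05, against 22.6% and 25.3%), and the median was -0.03. The gene was Rnf41, also called Nrdp1, the ubiquitin ligase that lowers Erbb3 protein, at 11, 7, 9, 6 and 11 FPKM in cancers 1 to 5 and at 5 FPKM in each control (log2 fold change 0.68, SE 0.21, limma adjusted p = 0.0412). Errfi1, an inhibitor of Egfr and Erbb2, stood at 75 FPKM in cancer 5 and at 11 to 20 FPKM in the other cancers and 16 to 18 FPKM in the controls (0.29, limma adjusted p = 0.698). With TPM 5 of the 10 were higher, as were 50.0% of all genes. Rnf41 was not called without cancer 1 (0.0698), cancer 3 (0.0842), cancer 5 (0.0673), control 1 (0.111), control 2 (0.111) or control 3 (0.105), nor with quantile normalization (0.0504).

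Of the adaptors and the RAS, ERK and PI3K transducers, 12 of 23 were lower and 1 was higher on FPKM, with a median of -0.50, where 18.3% of all genes were lower and 16.2% were higher. Of these 12, 9 lay above 0 with TPM. Of all 2622 genes called lower on FPKM, 821 did so, and of the 4 members called lower, 0 did. With TPM 2 of the list were lower and 5 were higher, against 3.68% and 50.0% of all genes. Gab1, an adaptor between the receptors and PI3K, was at 1, 3, 1, 3 and 2 FPKM in cancers 1 to 5 and at 6, 8 and 9 FPKM in controls 1 to 3. Its log2 fold change was -1.58 (SE 0.30, limma adjusted p = 0.00777), and it was lower with TPM too (-0.92, limma adjusted p = 0.0369). Map2k1, the MEK1 gene, was at 26 to 38 FPKM against 69 to 100 FPKM (-1.34, limma adjusted p = 0.00275), but not past the threshold with TPM (-0.38, limma adjusted p = 0.11). The gene that was higher was Araf, a serine/threonine kinase of the ERK cascade, at 29 to 39 FPKM in the cancers and 21 to 26 FPKM in the controls (0.56, limma adjusted p = 0.0204), named after its value was seen. The adaptors Grb2 and Shc1 did not pass the threshold (-0.01 and 0.62).

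Of 11 feedback inhibitors of the ERK pathway tested, 3 were higher, where 16.2% of all genes were, and 0 were lower (4 and 0 at an unadjusted p under 0.05, against 22.6% and 25.3% of all genes). The median was 0.35 against -0.04 over all genes. With TPM 9 were higher, where 50.0% of all genes were, and the median was 1.30 against 0.81. Spry4, a Sprouty inhibitor of RAS activation, was at 6, 3, 9, 2 and 7 FPKM in cancers 1 to 5 and at 1 FPKM in each control (log2 fold change 1.54, SE 0.40, limma adjusted p = 0.0216). Spry2 was at 11 to 14 FPKM against 7 to 9 FPKM (0.54, limma adjusted p = 0.0255). Spred3, a RAS inhibitor of the Spred family, was at 3, 2, 3, 2 and 6 FPKM in the cancers and was listed at 0 in each control, so that no fold change is given (limma adjusted p = 0.00297). The call of Spry4 was lost without control 1 (0.0719), control 2 (0.0685) or control 3 (0.0683) and with quantile normalization (0.0506), and that of Spry2 without cancer 3 (0.0552), control 1 (0.0571), control 2 (0.103) or control 3 (0.052).

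Among 9 genes known to respond to ERK activity, 2 were higher and 1 was lower, where 16.2% and 18.3% of all genes were. With TPM 2 were higher and 0 were lower (50.0% and 3.68% of all genes), and the median was 0.69 against 0.81. Etv5 and Etv4, ETS transcription factors of the PEA3 group, stood at 17, 17, 19, 11 and 31 FPKM and at 4, 7, 4, 5 and 7 FPKM in cancers 1 to 5. In the controls Etv5 was at 3, 3 and 4 FPKM and Etv4 at 1 FPKM throughout. The log2 fold changes were 2.14 (SE 0.29, limma adjusted p = 0.00267) and 1.65 (SE 0.21, limma adjusted p = 0.00209), and 3.10 and 2.53 with TPM. Phlda1, a pleckstrin homology protein induced by growth factors, was at 6, 30, 8, 26 and 18 FPKM against 61, 51 and 48 FPKM (-1.77, SE 0.51, limma adjusted p = 0.033). With TPM it was at -0.85 (limma adjusted p = 0.114), and its call was lost without cancer 3 (0.07), cancer 5 (0.054), control 1 (0.11), control 2 (0.0887) or control 3 (0.0844) and with quantile normalization (0.0631). The immediate early genes Fos and Egr1 overlapped between the groups (-0.27 and 0.05), with cancer 5 the highest library for both, at 71 and 29 FPKM.

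**Figure D5:**
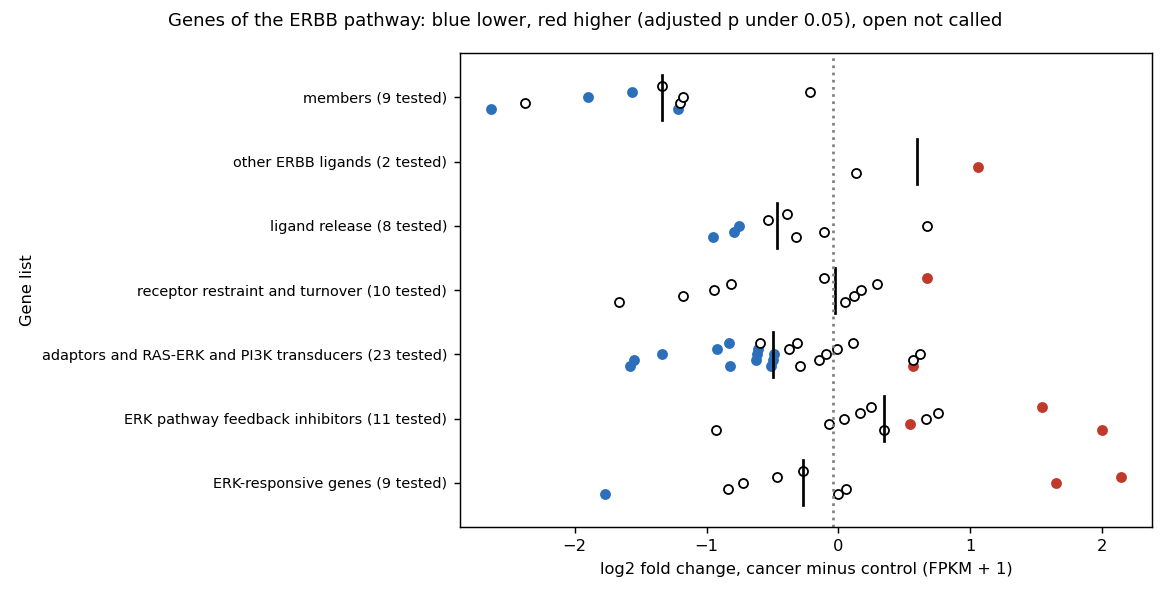
Log2 fold change on FPKM of each tested member and of each tested gene of the 6 pathway lists, blue where lower and red where higher at a limma adjusted p under 0.05 and open otherwise, with a bar at each list's median and a dotted line at the median of all genes tested. The 9 members lie to the left of the dotted line, at a median of -1.34, whereas the 11 feedback inhibitors have a median of 0.35. With TPM Hbegf and 12 of the 16 lower pathway genes lie above 0, as do 821 of all 2622 genes called lower. The position of Spred3, listed at 0 in each control, depends on the pseudocount.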

How the data were processed

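RNA was extracted from 5 SCJ cancers and 3 control SCJ tissues, poly(A) selected and sequenced. The authors used cutadapt 1.8 for trimming, cuffquant for quantification over the UCSC mm10 annotation and Cuffnorm 2.2.1, with an option not given in the sources used here, for FPKM. TopHat2 2.0.13 is listed in the submitters' processing notes. The deposited values are FPKM that the authors rounded to whole numbers, and were handled as a score, without any count model. Rounding coarsens low members such as Egf. Depth per library is unknown. Coordinates in the table count from 0 and are given here from 1. The Cre-driven deletion was not measured by exon.

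The 14357 genes that reached 1 FPKM in 3 or more samples entered a limma 3.58.1 fit in R 4.3.3 (eBayes with a trend in the variance) of log2(FPKM + 1), and p-values were adjusted over all of them by Benjamini-Hochberg, with 0.05 as the threshold. Fold changes are on this scale, which understates changes of low genes. The fit was tested on simulated data. Members were also compared by an exact permutation test. The members and lists were chosen with earlier results of these data known. Genes named were the 10 members, up to 3 genes of each pathway list with the largest change past the threshold and no overlap between groups (some of these are not reported here), the 2 nearest profiles of each member, Trp53, Rb1 and markers. Genes named after their values were seen were Epgn, Gm19619, Nrg1, Nrg2, Nrg3, Adam17, Errfi1, Araf, Grb2, Shc1, Fos and Egr1. The alternatives were pseudocounts of 0.1 and 0.01, TPM, quantile normalization, other filters, array weights, a replicate block, a fit with no trend and leaving out each library. All 151 list entries were matched.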

Additional observations from a re-analysis of the deposited data

Results flagged for a closer look

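Egfr made up 75% of the summed receptor FPKM in cancer 1 and 17.1% to 33.3% in the other cancers, and the gap to the nearest cancer was 0.719 of the range of the 5. The Areg share of the ligand sum was 11.8% in cancer 3 and 50% to 54.4% in the other cancers, a gap of 0.897 of the range. The Hbegf share was 64.7% in cancer 3 and 14.1% to 20% in the other cancers, a gap of 0.883. The last 2 are parts of the same sum and are not independent. Of 32 results compared in this way, 3 stood out, where 1.6 would by chance.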

How the results depend on the processing

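The 4 members called were also called with all genes above 0, a mean FPKM of at least 5 and eBayes without trend. With quantile normalization 4 were called, but Erbb3 was lost (limma adjusted p = 0.051) and Egf was gained (-1.67, limma adjusted p = 0.0138). With a pseudocount of 0.1 or 0.01 the number was 3, without Erbb3 (limma adjusted p = 0.0527 and 0.0583). It was 1 with TPM, 8 with array weights and 1 to 5 with each library left out, and no member was called higher under any of these settings. Genes changed numbered 4948 in all, 7704 with TPM, 8148 with array weights and 2490 to 5252 with each library left out. Genes higher were 2326, and 7176 with TPM, 3909 with array weights, 1244 with a mean of at least 5 and 1369 to 2466 with each library left out. Genes lower were 2622, and 528 with TPM, 4239 with array weights and 1121 to 2786 with each library left out. Pathway genes changed were 24, and 11 with quantile normalization and 7 to 26 with each library left out. Hbegf reversed to 0.69 with TPM and 0.10 with array weights, and ranged from -0.48 to 0.07 with each library left out. Trp53 reversed to 0.86 with TPM and 0.12 with quantile normalization, and ranged from -0.287 to 0.027 with each library left out. With TPM, Adam10 reversed to 0.007, Frmd8 to 0.093 and Adam9 to 0.20. The cause was not tested in any of these cases.

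Samples with the same replicate number did not deviate together (correlations of -0.02, -0.19 and -0.10), so the numbers give no pairing. With a replicate block, 1534 genes were called, 982 higher and 552 lower, and 1327 of these were shared with the fit that had none. By limma with the block, 0 members were called (6 at an unadjusted p under 0.05, where 37.9% of all genes were) and 6 pathway genes were called. Without the block 4948 genes were called. Egf and Ereg were not tested with a mean of at least 5. Depth was unknown, which limits what can be said of values of 0, and rounding to whole FPKM is coarse for members at 0 to 3 FPKM.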
